A study of Rattus norvegicus with 6 samples.

Results

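Endogenous opioid peptides are cut from a few large precursor proteins, and 4 genes encode them. Penk encodes proenkephalin, the source of the enkephalins, which act mainly on delta and mu receptors. Pdyn encodes prodynorphin, the source of the dynorphins, which act on kappa receptors. Pnoc encodes prepronociceptin, the source of nociceptin, and Pomc encodes proopiomelanocortin, the source of beta-endorphin and of several melanocortins. In the striatum, enkephalin is known as a peptide of spiny projection neurons with the D2 dopamine receptor and dynorphin as a peptide of those with the D1 receptor. Naloxone blocks the mu, delta and kappa receptors through which the enkephalins, the dynorphins and heroin act.

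The 4 genes were chosen by symbol, Penk (ENSRNOG00000008943), Pdyn (ENSRNOG00000026036), Pnoc (ENSRNOG00000014231) and Pomc (ENSRNOG00000012686), out of 25629 genes in the files, and all 4 had counts. They were followed in single nuclei of the nucleus accumbens of adult Sprague-Dawley rats aged 90 to 120 postnatal days. Every rat had taken heroin by self-administration: 7 days in which each response earned an infusion (FR1), 4 days at 3 responses (FR3), a progressive ratio test on day 12, and FR3 again on days 13 and 14. The saline group then received saline and the naloxone group naloxone, and the brain was taken 1 hour later. Tissue of 12 rats, 6 of each sex, was combined into 6 libraries, 3 per group, so a library mixes animals and both sexes. No heroin-naive group is analysed here, and the p-values measure the spread between pooled libraries.

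The libraries held 8094 to 15020 barcodes and 55739350 to 76272798 counts of unique molecular identifiers (UMIs), each UMI standing for 1 captured RNA molecule. Of 64260 barcodes, 61609 passed the filters on detected genes and mitochondrial UMIs, 2649 of these were called doublets, and 58960 nuclei were used, with library medians of 4195.5 to 6430 UMIs. The labels speak of 44592 nuclei. Libraries of 1 group differed by more than sampling noise (chi-square per degree of freedom 10.6 to 51.6 between pairs), and naloxone replicate 5 stood apart most, at 51.6 and 42.1 against the other naloxone libraries. Barcode strings found in 2 or more libraries numbered 463.

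In the nuclei used, Penk had 22241 UMIs, Pdyn 3790, Pnoc 840 and Pomc 256. Nuclei were placed in classes by marker gates in which none of the 4 genes took part, and class names below name the gate that a nucleus passed. Drd2 spiny nuclei numbered 4787, Drd1 spiny nuclei 5502, nuclei of the Chst9 Grm8 spiny type 3100, eccentric spiny nuclei (Otof with Mdfic or Casz1) 972, and Drd3 Adamtsl1 nuclei 992. Interneuron-like nuclei comprised 213 cholinergic and 284 somatostatin nuclei. Another 5858 nuclei had GABAergic markers and passed no other gate. They are called other GABAergic, and no interneuron marker set that class. Glia-like nuclei comprised 10664 oligodendrocyte, 4247 astrocyte, 2334 oligodendrocyte precursor and 1185 microglia nuclei. The gates for endothelial (193), mural (154) and ependymal (172) nuclei held too few nuclei in 1 or more libraries for a comparison, 4440 spiny nuclei fitted no single subtype, and 13863 nuclei passed no gate.

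The sums of the marker lists are given by class as a description. The same lists set the gates, so a high sum in a class's own nuclei is no check of its gate. In Drd2 spiny nuclei the Drd2 list summed to 863 to 960 CPM (counts per 1000000 UMIs of the class) over the libraries, and the next class reached 206 to 260. In oligodendrocyte-like nuclei the myelin list summed to 13251 to 14650 CPM, and the next class reached 1129 to 1923. The Drd1 list did not separate its class by its sum: it came to 247 to 355 CPM in Drd1 spiny nuclei and to 247 to 431 in astrocyte-like nuclei, so that class rests on the markers of spiny neurons in general as well. The list of other GABAergic nuclei did not either, at 679 to 833 CPM in its own class and 773 to 888 in Drd3 Adamtsl1 nuclei. Chat and Slc18a3, defining markers of cholinergic neurons, were not analysed here, and that class rests on Slc5a7, Lhx8 and Slc17a8. Of the gated Drd2, Drd1 and Chst9 Grm8 nuclei, 86.7%, 86.0% and 86.7% fell in clusters of the same name. Of the somatostatin nuclei 59.9% did and 16.5% fell in clusters of another name. No cluster bore the name of the other GABAergic class, of which 15.9% fell in named clusters.

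The promoters of Pdyn and Pomc, the members with an entry in the promoter table used here, are shown as regulatory sequences beside the levels that follow. They come from RefSeq (build GRCr8, not the build of the files), and the counts do not measure promoter activity. The stretch runs over the 250 bases before the annotated start, 5′ to 3′ on the gene's strand, at chr3:137366504-137366753 on the minus strand for Pdyn and at chr6:32659103-32659352 on the plus strand for Pomc.
Pdyn: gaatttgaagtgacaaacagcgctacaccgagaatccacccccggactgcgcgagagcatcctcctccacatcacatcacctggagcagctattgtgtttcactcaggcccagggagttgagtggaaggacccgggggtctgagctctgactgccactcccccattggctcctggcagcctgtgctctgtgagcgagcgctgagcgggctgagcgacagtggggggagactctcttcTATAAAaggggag
Pomc: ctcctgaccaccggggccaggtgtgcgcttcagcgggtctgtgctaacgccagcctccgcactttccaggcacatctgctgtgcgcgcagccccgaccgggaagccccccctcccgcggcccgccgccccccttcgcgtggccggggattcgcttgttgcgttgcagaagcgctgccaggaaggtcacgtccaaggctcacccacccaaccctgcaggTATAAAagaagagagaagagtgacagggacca
Capitals mark the motif TATAAA, searched on both strands (TTTATA on the other). It was found once in each, beginning 13 bases before the start in Pdyn and 32 bases before it in Pomc, and 12.9% of 33469 promoter stretches of this length held it.

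Penk was highest per nucleus in Drd2 spiny nuclei. They held 1.10, 0.772 and 1.80 Penk UMIs per nucleus in saline replicates 1, 2 and 3, and 1.01, 1.45 and 1.62 in naloxone replicates 4, 5 and 6. The mean was 1.29 ± 0.394 (SD, n = 6 libraries). Next came Chst9 Grm8 spiny nuclei at 0.599 ± 0.180, with 0.338 in the lowest library and 0.797 in the highest, and eccentric spiny nuclei at 0.427 ± 0.0999. Drd2 spiny nuclei lay above Chst9 Grm8 spiny nuclei in all 6 libraries, by 0.695 UMIs per nucleus. The exact two-sided sign-flip permutation test gave p = 0.031, the smallest that 6 libraries allow, and 0.172 after Benjamini-Hochberg adjustment over 33 pairs of neighbouring classes.

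Penk UMIs were also found in glia-like and Drd1 spiny nuclei, at a nearly constant number per nucleus. Oligodendrocyte-like nuclei held 0.202 ± 0.0413 Penk UMIs per nucleus, astrocyte-like nuclei 0.198 ± 0.0463, oligodendrocyte precursor-like nuclei 0.193 ± 0.0386 and microglia-like nuclei 0.245 ± 0.0469. Drd1 spiny nuclei held 0.231 ± 0.0659, or 1.148 times the oligodendrocyte mean, although their median depth was 9256 UMIs against 1679.5. The Penk level of Drd1 spiny nuclei thus lay close to that of the glia-like nuclei. Free RNA was not measured, so it and expression in these nuclei cannot be told apart, and the oligodendrocyte level serves as a reference. Drd2 spiny nuclei lay 6.42 times above the oligodendrocyte mean, Chst9 Grm8 spiny nuclei 2.97 times and eccentric spiny nuclei 2.12 times. Somatostatin and other GABAergic nuclei lay 1.80 and 1.78 times above it. Each of these 5 classes was higher than oligodendrocyte-like nuclei in 6 of 6 libraries (exact sign-flip p = 0.031 each, 0.0793 adjusted over 33 pairs, a comparison chosen after seeing the data).

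**Figure D1:**
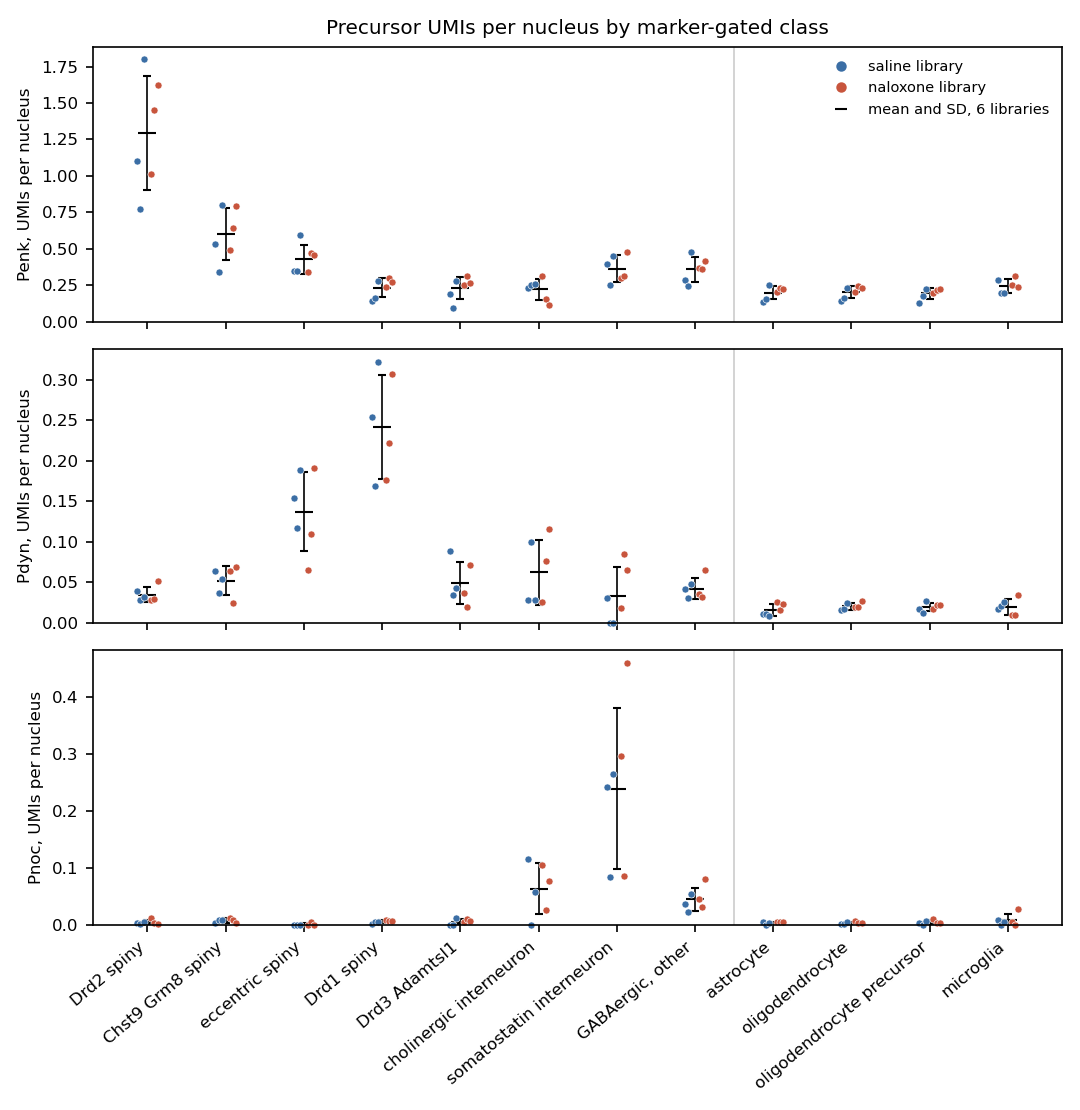
UMIs per nucleus (vertical axes, linear) of Penk, Pdyn and Pnoc in 12 marker-gated classes, neurons left of the grey line and glia right of it. Each point is a library and the black bar gives the mean and SD of 6 libraries. Penk stands out in Drd2 spiny nuclei (0.772 to 1.80), Pdyn in Drd1 spiny nuclei (0.169 to 0.322) and Pnoc in somatostatin nuclei (0.0833 to 0.459).

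The order of classes depended on the scale. In CPM, a constant number of Penk UMIs weighs more in shallow nuclei. Microglia-like nuclei then stood at 127 ± 40.5 CPM, Drd2 spiny nuclei at 124 ± 27.3, oligodendrocyte-like nuclei at 108 ± 31.3 and Chst9 Grm8 spiny nuclei at 77.6 ± 16.01. The first 2 of these did not differ beyond their spread (exact sign-flip p = 0.875), nor did Drd2 spiny and oligodendrocyte-like nuclei (p = 0.188). The order went on with astrocyte-like nuclei at 72.4 ± 20.2 CPM, oligodendrocyte precursor-like nuclei at 51.8 ± 15.7 and eccentric spiny nuclei at 46.8 ± 9.79. Drd1 spiny nuclei (22.4 ± 7.11 CPM) and cholinergic nuclei (17.3 ± 7.52 CPM) came last. Among neurons the first places were the same on both scales: Drd2 spiny nuclei exceeded Chst9 Grm8 spiny nuclei by 46.8 CPM and Drd1 spiny nuclei by 102 CPM, each in 6 of 6 libraries (exact sign-flip p = 0.031 for both).

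**Figure D2:**
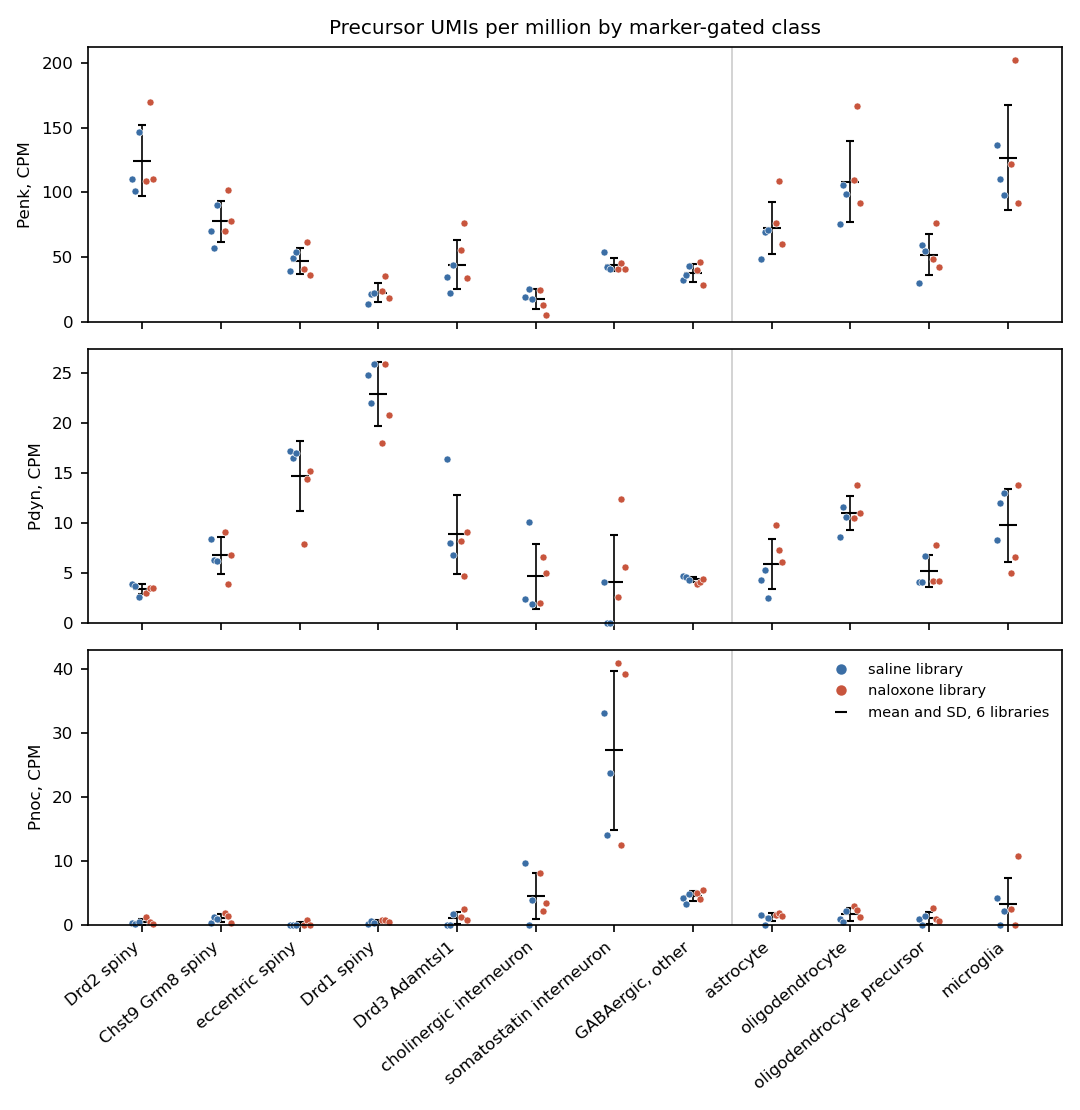
The same genes, classes and libraries in CPM (vertical axes, linear). On this scale Penk of microglia-, oligodendrocyte- and astrocyte-like nuclei overlaps Penk of Drd2 spiny nuclei (101 to 170 CPM) and that of oligodendrocyte precursor-like nuclei (29.9 to 76.3 CPM) does not, while the highest class of Pdyn (Drd1 spiny, 17.999 to 25.9 CPM) and of Pnoc (somatostatin, 12.4 to 40.9 CPM) is the one seen per nucleus.

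The ratio of Penk to Pdyn UMIs within a class needs no scaling to depth. It was 9.71 in oligodendrocyte-like nuclei, 10.1 in oligodendrocyte precursor-like nuclei, 11.4 in microglia-like nuclei and 12.3 in astrocyte-like nuclei, pooled over libraries. The pooled ratio of Chst9 Grm8 spiny (11.6), somatostatin (11.7) and other GABAergic nuclei (8.47) was of the same size. That of somatostatin nuclei rests on 9 Pdyn UMIs, and only 4 libraries gave a ratio. Single libraries varied, from 7.84 to 29.0 in astrocyte-like and from 6.67 to 30.5 in microglia-like nuclei. In Drd2 spiny nuclei the ratio was 37.0 (27.2 to 56.1 over the libraries) and in Drd1 spiny nuclei it was 0.967 (0.556 to 1.35). Eccentric spiny nuclei lay between these, at 3.10 (2.27 to 5.17). So did cholinergic nuclei at 3.69 (1 to 12, from 13 Pdyn UMIs) and Drd3 Adamtsl1 nuclei at 5.26 (2.1 to 16).

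The share of nuclei with a Penk UMI was read beside that of oligodendrocyte-like nuclei. Of Drd2 spiny nuclei, 58.5% ± 8.995 (SD, n = 6 libraries) had at least 1 Penk UMI, against 17.3% ± 3.09 of oligodendrocyte-like nuclei. With at least 2 UMIs the shares were 31.1% ± 9.23 and 2.53% ± 0.913. Chst9 Grm8 spiny nuclei had 2 or more UMIs in 12.6% ± 4.22, eccentric spiny nuclei in 9.06% ± 1.81, other GABAergic nuclei in 6.64% ± 1.79 and Drd1 spiny nuclei in 3.57% ± 1.49. The highest count in 1 nucleus was 25 in a Drd2 spiny nucleus, 17 in another GABAergic nucleus and 7 in a Drd1 spiny nucleus. The 10% of Drd2 spiny nuclei richest in Penk held 42.0% of that class's Penk UMIs. When each nucleus was thinned to 1000 UMIs, 11.3% ± 2.01 of Drd2 spiny and 10.5% ± 2.09 of oligodendrocyte-like nuclei kept a Penk UMI, with 0.0209% and 15.9% of nuclei left out as shallower. At equal depth Drd2 spiny and oligodendrocyte-like nuclei thus lay close together, as they do in CPM. Among spiny classes the thinned share was 9.16% to 14.5% in Drd2 and 6.53% to 9.82% in Chst9 Grm8 nuclei. Drd2 spiny nuclei were the higher of these in every library. Eccentric spiny nuclei kept a Penk UMI in 3.29% to 5.43% and Drd1 spiny nuclei in 1.51% to 3.64%. These shares are a description.

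Within the Drd2 type, Penk was uneven. Clusters were built without the 4 genes and the pathway genes named further on, and what follows is a description with no test. The Drd2 spiny clusters led by Drd2, Calcr and Adora2a (cluster 5, 2766 nuclei) and by Drd2, Calcr and Oprd1 (cluster 10, 1990 nuclei) held 1.48 ± 0.485 and 1.05 ± 0.397 Penk UMIs per nucleus (SD, n = 6 libraries). A Drd2 spiny cluster led by Drd2, Itga11 and Dach1 (cluster 31, 423 nuclei) held 0.291 ± 0.0743, with 0.200, 0.229 and 0.377 in saline replicates 1, 2 and 3 and 0.380, 0.277 and 0.286 in naloxone replicates 4, 5 and 6. All 6 values lay below every library of the other Drd2 clusters (0.609 or more), and the lowest overlapped those of oligodendrocyte-like nuclei (0.143 to 0.244). Its depth, 8204 UMIs at the median, was close to theirs (8619.5 and 8029.5), and its Drd2 level was 688 CPM against 535 and 597. Drd2-rich nuclei of this cluster thus held little Penk.

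**Figure D3:**
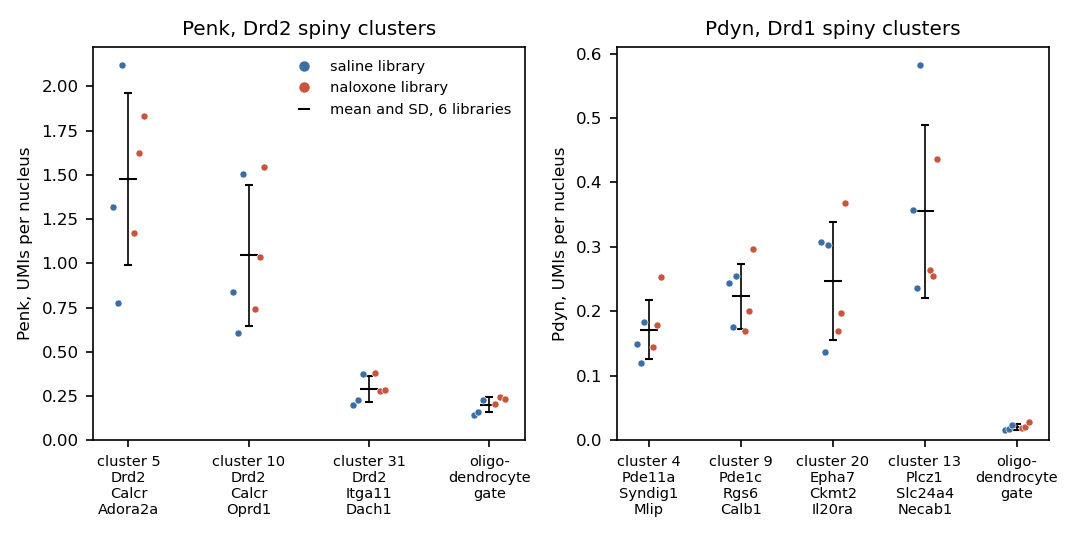
UMIs per nucleus (vertical axes, linear) of Penk in 3 Drd2 spiny clusters and of Pdyn in 4 Drd1 spiny clusters, each beside oligodendrocyte-like nuclei, with the 3 leading genes of each cluster named under it. Points are libraries and bars give the mean and SD of 6 libraries. Penk of cluster 31 lies at 0.200 to 0.380, near the oligodendrocyte level, and Pdyn is highest on average in cluster 13.

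Pdyn was highest in Drd1 spiny nuclei on both scales. They held 24.8, 22.0 and 25.9 Pdyn CPM in saline replicates 1, 2 and 3 and 17.999, 25.9 and 20.8 in naloxone replicates 4, 5 and 6, a mean of 22.9 ± 3.19 CPM. Eccentric spiny nuclei followed at 14.7 ± 3.497 CPM, lower in 6 of 6 libraries by 8.22 CPM (exact sign-flip p = 0.031, 0.206 adjusted over 33 pairs). Oligodendrocyte-like nuclei came next at 11.0 ± 1.68 CPM and could not be separated from eccentric spiny nuclei on this scale (exact sign-flip p = 0.0938). Drd2 spiny nuclei had the lowest Pdyn level of the 12 classes, 3.39 ± 0.475 CPM.

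Per nucleus, Drd1 spiny nuclei held 0.242 ± 0.0646 Pdyn UMIs, 11.6 times the 0.0209 ± 0.00433 of oligodendrocyte-like nuclei. Eccentric spiny nuclei held 0.138 ± 0.0491, 6.58 times that level, and both were above it in 6 of 6 libraries. Chst9 Grm8 spiny nuclei held 0.0522 ± 0.0176 and Drd2 spiny nuclei 0.0350 ± 0.00932, also above oligodendrocyte-like nuclei in 6 of 6 libraries. So were cholinergic nuclei at 0.0626 ± 0.0401 and other GABAergic nuclei at 0.0424 ± 0.0127 (exact sign-flip p = 0.031 for each of these 6 classes, 0.0793 adjusted). The cholinergic level rests on 13 Pdyn UMIs. In CPM, Chst9 Grm8 spiny (6.76), cholinergic (4.68), other GABAergic (4.35) and Drd2 spiny nuclei (3.39) instead lay below oligodendrocyte-like nuclei (11.0). Oligodendrocyte-like nuclei were shallower than all 6 classes, at a median of 1679.5 UMIs. A Pdyn UMI was found in 19.1% ± 3.90 of Drd1 spiny, 11.4% ± 3.57 of eccentric spiny, 3.05% ± 0.489 of Drd2 spiny and 2.01% ± 0.408 of oligodendrocyte-like nuclei. Drd1 spiny nuclei held 34.1% of all Pdyn UMIs, spiny nuclei of no single subtype 17.0% and nuclei outside every gate 19.0%.

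Among Drd1 spiny clusters, again as a description, Pdyn was highest in the one led by Plcz1, Slc24a4 and Necab1 (cluster 13, 1719 nuclei), at 34.3 ± 5.86 CPM (SD, n = 6 libraries). The cluster led by Pde1c, Rgs6 and Calb1 (cluster 9, 2017 nuclei) stood at 23.3 ± 2.74 CPM, that led by Epha7, Ckmt2 and Il20ra (cluster 20, 1265 nuclei) at 19.5 ± 4.17, and that led by Pde11a, Syndig1 and Mlip (cluster 4, 2896 nuclei) at 16.4 ± 2.40. The libraries of cluster 13 ranged from 29.1 to 45.4 CPM and those of cluster 4 from 14.96 to 21.2 CPM, without overlap. Penk varied little over the same 4 clusters, with means of 0.205 to 0.255 UMIs per nucleus.

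Of the 12 classes, somatostatin nuclei had the highest Pnoc level on both scales. Somatostatin nuclei, gated on Sst, Npy, Nos1 and Chodl, held 33.1, 14.0 and 23.8 Pnoc CPM in saline replicates 1, 2 and 3 and 40.9, 12.4 and 39.2 in naloxone replicates 4, 5 and 6. These values rest on 8, 4 and 14 UMIs and on 16, 3 and 28 UMIs in 33 to 61 nuclei per library. The mean, 27.2 ± 12.4 CPM, exceeded that of the next class, cholinergic nuclei at 4.50 ± 3.63 CPM, by 22.7 CPM in 6 of 6 libraries (exact sign-flip p = 0.031, 0.206 adjusted over 33 pairs). Other GABAergic nuclei stood at 4.42 ± 0.808 CPM and did not differ from cholinergic nuclei beyond their spread (exact sign-flip p = 0.938). All spiny classes were at or under 1 CPM, from 0.114 ± 0.280 in eccentric to 0.970 ± 0.608 in Chst9 Grm8 spiny nuclei. Oligodendrocyte-like nuclei held 1.59 ± 0.986 CPM.

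Because other GABAergic nuclei are many, they held 31.0% of all Pnoc UMIs and somatostatin nuclei 8.69%, while 37.4% lay in nuclei outside every gate. A Pnoc UMI was found in 13.9% ± 6.52 of somatostatin, 3.79% ± 1.30 of other GABAergic and 0.2998% ± 0.1802 of oligodendrocyte-like nuclei. Clusters with Pnoc included one led by Klhl1, Zfhx4 and Car10 (cluster 15, 1546 nuclei, 12.6 ± 3.84 CPM) and one led by Nox4, Ano2 and Trpc4 (cluster 16, 1545 nuclei, 9.81 ± 1.63 CPM), both without a name from the marker lists.

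Pomc was close to absent. Its 256 UMIs gave 0.546 CPM in Drd2 spiny nuclei (95% Poisson interval 0.356 to 0.799), 0.643 in Drd1 spiny nuclei (0.450 to 0.890) and 0.687 in oligodendrocyte-like nuclei (0.375 to 1.152). These intervals cover counting error only. Somatostatin nuclei gave 2.03 CPM (0.659 to 4.74) from 5 UMIs. All 12 intervals overlapped, those of somatostatin and Drd2 spiny nuclei narrowly, and no test was made. In the libraries, 0.370% to 0.516% of nuclei had a Pomc UMI.

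Over the 12 class means of log2(CPM + 1), the genes with a pattern most like each precursor were ranked among 11715 genes reaching 10 CPM in a class. For Penk these were Taf6 (Pearson r = 0.84), Gpr6 (0.83), Ubald1 (0.81), Tm9sf1 (0.80) and Rpl35a (0.80). Gpr6 was itself a marker of the Drd2 gate, and the other 4 were highest in microglia- or oligodendrocyte-like nuclei. For Pdyn they were Drd1 (0.77), a marker of its gate, Mrpl3 (0.74), Chrm4 (0.72), Arid1b (0.70) and Fam98c (0.70). Of these only Drd1 was highest in Drd1 spiny nuclei. Mrpl3 was highest in oligodendrocyte-like, Chrm4 in Drd3 Adamtsl1, Arid1b in microglia-like and Fam98c in eccentric spiny nuclei. For Pnoc they were Map3k15 (0.94), Lhx6 (0.92), Npsr1 (0.91), Dync1h1 (0.91) and Tmed1 (0.89), all highest in somatostatin nuclei. The 12 points share libraries and differ in depth, and these values are a description.

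The share of nuclei with both Penk and Pdyn did not differ from the product of their separate shares by more than the spread between libraries. Each nucleus with 5000 or more UMIs was thinned to 5000, and shallower nuclei were left out. This kept 5073 of 5502 Drd1 spiny, 4412 of 4787 Drd2 spiny and 2154 of 3100 Chst9 Grm8 spiny nuclei. It kept 861 of 972 eccentric spiny and 4943 of 5858 other GABAergic nuclei. The share with both was set against the product of the single shares in the same library and class. In Drd1 spiny nuclei 1.11% ± 0.453 held both (SD, n = 6 libraries) where the product was 1.11% ± 0.425. The log2 ratio was -0.01 ± 0.28, above 0 in 4 of 6 libraries (exact sign-flip p = 0.906). In Drd2 spiny nuclei 0.650% ± 0.140 held both against 0.635% ± 0.0846 (log2 ratio 0.01 ± 0.21, p = 0.969 by the same exact test). Chst9 Grm8 spiny nuclei gave 0.662% ± 0.218 against 0.680% ± 0.145 (log2 ratio -0.07 ± 0.44, exact p = 0.719). Without thinning, 197 of 5502 Drd1 spiny, 83 of 4787 Drd2 spiny and 59 of 3100 Chst9 Grm8 spiny nuclei held both.

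Eccentric spiny nuclei had the highest share with both, 1.73% ± 0.627 against a product of 1.195% ± 0.248. The log2 ratio was 0.47 ± 0.67, above 0 in 5 of 6 libraries, and did not pass the test (exact sign-flip p = 0.156, adjusted p = 0.969 over 7 tests). In other GABAergic nuclei the pair stood at 0.244% ± 0.142 against 0.273% ± 0.0472, and Penk with Pnoc at 0.315% ± 0.195 against 0.297% ± 0.0760. Pdyn and Pnoc shared only 11 of 5858 of these nuclei before thinning. Per nucleus, eccentric spiny nuclei lay above the oligodendrocyte level in both genes, at 2.12 times for Penk and 6.58 times for Pdyn. So did Chst9 Grm8 spiny nuclei, at 2.97 and 2.499 times. Penk of Drd1 spiny nuclei lay at 1.148 times and Pdyn of Drd2 spiny nuclei at 1.67 times that level. The CPM scale differed: oligodendrocyte-like nuclei held 108 CPM of Penk and 11.0 of Pdyn. Eccentric spiny nuclei held 46.8 and 14.7, and Chst9 Grm8 spiny nuclei 77.6 and 6.76. Whether nuclei with both express both was not tested.

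**Figure D4:**
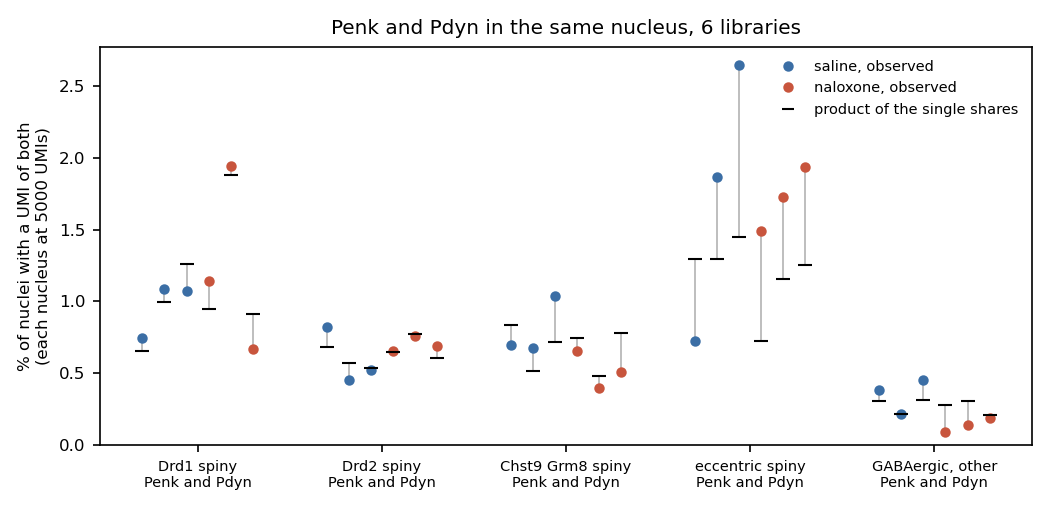
Share of nuclei with a UMI of both Penk and Pdyn (percent, vertical axis, linear) in 5 classes. Nuclei of 5000 or more UMIs were thinned to 5000 and the others left out. Points are libraries in the order of replicates 1 to 6 and black ticks give the product of the 2 single shares in that library. Points lie on both sides of their ticks in Drd1, Drd2 and Chst9 Grm8 spiny and other GABAergic nuclei. In eccentric spiny nuclei 5 of 6 points lie above their ticks.

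Co-detection was also compared between groups, where 3 libraries against 3 cannot give an exact permutation p below 0.1. In Drd1 spiny nuclei the share with both was 0.969% ± 0.195 after saline and 1.25% ± 0.646 after naloxone (SD, n = 3 each, exact two-sided permutation p = 0.7). That smallest p was reached in Chst9 Grm8 spiny nuclei, with 0.803% ± 0.203 after saline and 0.520% ± 0.130 after naloxone (exact p = 0.1, adjusted p = 0.433 over 13 tests). It was also reached in other GABAergic nuclei, with 0.349% ± 0.123 after saline and 0.139% ± 0.0488 after naloxone (exact p = 0.1, adjusted p = 0.433). There the log2 ratio to the product was 0.27 ± 0.28 after saline and -0.97 ± 0.74 after naloxone (exact permutation p = 0.1, adjusted p = 0.433). In Chst9 Grm8 spiny nuclei that ratio was 0.22 ± 0.43 and -0.36 ± 0.23 (exact permutation p = 0.2, adjusted p = 0.65).

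No precursor passed the test between saline and naloxone in any class. After a filter on low counts, Penk could be tested in 11 classes, Pdyn in 7 and Pnoc in 2, and all 4 genes over all nuclei, which makes 24 tests. With edgeR's quasi-likelihood test, 0 of these 24 had a Benjamini-Hochberg adjusted p under 0.05 over all genes of the fit, 3 had an unadjusted p under 0.05 (Pdyn in astrocyte-like nuclei, Penk in Drd3 Adamtsl1 nuclei and Pnoc over all nuclei), and DESeq2 called 0 of the 19 to which it gave an adjusted p. Among all genes, 9.21% of tests in the 12 class fits had an unadjusted p under 0.05 by edgeR, and 2480 of 17324 genes did over all nuclei. Of the 24 precursor tests, the estimate was above 0 in 16 and below 0 in 8. Calls were rare among all genes too: 0.26% of genes tested in Drd2 spiny, 0.199% in Drd1 spiny, 0.161% in Chst9 Grm8 spiny, 0.0106% in eccentric spiny and 0.0492% in Drd3 Adamtsl1 nuclei. The share was 0.0892% in other GABAergic, 0.598% in oligodendrocyte-like, 0.617% in astrocyte-like, 0.0147% in microglia-like and 0.0198% in oligodendrocyte precursor-like nuclei, and 0.075% over all nuclei. In somatostatin and cholinergic nuclei it was 0%, with 300 of 5388 and 280 of 6233 genes at an unadjusted p under 0.05 by edgeR and 0 called by DESeq2.

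Penk in Drd2 spiny nuclei stood at 110, 101 and 147 CPM in saline replicates 1, 2 and 3 and at 109, 170 and 110 CPM in naloxone replicates 4, 5 and 6. The groups overlapped, and the highest value came from naloxone replicate 5. The log2 change was 0.14 ± 0.16 (SE), with a 95% interval of -0.22 to 0.49 (edgeR, adjusted p = 0.787). Without naloxone replicate 5 the estimate turned to -0.08. That library had the highest Penk CPM of the 6 in 10 of 12 classes, oligodendrocyte-like nuclei included.

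In Drd1 spiny nuclei, where Penk is near the oligodendrocyte level, the log2 change was 0.42 ± 0.20 (95% interval -0.02 to 0.86, edgeR adjusted p = 0.42), and in oligodendrocyte-like nuclei it was 0.35 ± 0.18 (-0.04 to 0.74, adjusted p = 0.488). Without naloxone replicate 5 these estimates were 0.15 and 0.11, and that of Drd1 spiny nuclei was 0.20 with stricter gates and 0.24 without saline replicate 1. With at least 1000 detected genes the oligodendrocyte estimate was 0.23. Any part of free RNA in the Drd1 estimate was not tested. The change in Drd2 minus that in Drd1 spiny nuclei was -0.25 ± 0.13 for Penk (edgeR with a library block, adjusted p = 0.618) and 0.19 ± 0.25 for Pdyn (adjusted p = 0.919), in a fit that called 0.781% of genes. With 1 library left out the Penk value ranged from -0.44 (without saline replicate 2) to -0.12 (without saline replicate 1). After subtraction of the oligodendrocyte level of each library, Penk of Drd2 spiny nuclei was 1.05 ± 0.486 UMIs per nucleus after saline and 1.14 ± 0.298 after naloxone (SD, n = 3 each, exact permutation p = 0.8).

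Pdyn in Drd1 spiny nuclei had a log2 change of -0.17 ± 0.13 (95% interval -0.44 to 0.11, edgeR adjusted p = 0.62), and the values given above overlap between the groups. The estimate was -0.04 with stricter gates, -0.07 without naloxone replicate 4 and -0.28 without naloxone replicate 5. In eccentric spiny nuclei the log2 change was -0.34 ± 0.27 (-0.90 to 0.23, adjusted p = 0.807). The largest Pdyn estimate was in astrocyte-like nuclei, 0.94 ± 0.39 (edgeR adjusted p = 0.394), where it rests on 68 UMIs in all. Penk in Drd3 Adamtsl1 nuclei gave 0.58 ± 0.27 (edgeR adjusted p = 0.719).

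Pnoc over all nuclei had a log2 change of 0.67 ± 0.26 (95% interval 0.07 to 1.27), which did not pass (edgeR adjusted p = 0.311). The values were 1.75, 1.42 and 1.98 CPM in saline replicates 1, 2 and 3 and 3.31, 1.69 and 3.21 CPM in naloxone replicates 4, 5 and 6. Replicates 4 and 6 lay above every saline library and replicate 5 among them. Without naloxone replicate 5 the log2 change was 0.92 and passed (edgeR adjusted p = 0.0414). That fit called 275 of 17562 genes, against 13 of 17324 with all 6 libraries, so the pass came with many more calls among all genes. The share of nuclei in the other GABAergic gate moved with the Pnoc values of the libraries, and its part in the result was not tested. It was 10.0%, 8.48% and 9.07% in the saline libraries and 12.4%, 8.24% and 12.4% in the naloxone libraries. In such a sum, more nuclei of a type and more RNA per nucleus cannot be told apart. Within the class, Pnoc of other GABAergic nuclei was 4.12, 3.19 and 4.85 CPM after saline and 4.97, 3.99 and 5.42 after naloxone, a log2 change of 0.28 ± 0.23 (edgeR adjusted p = 0.697). In somatostatin nuclei the log2 change was 0.56 ± 0.42 (-0.32 to 1.45, adjusted p = 0.957), and Pomc over all nuclei gave -0.13 ± 0.20 (adjusted p = 0.809).

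**Figure D5:**
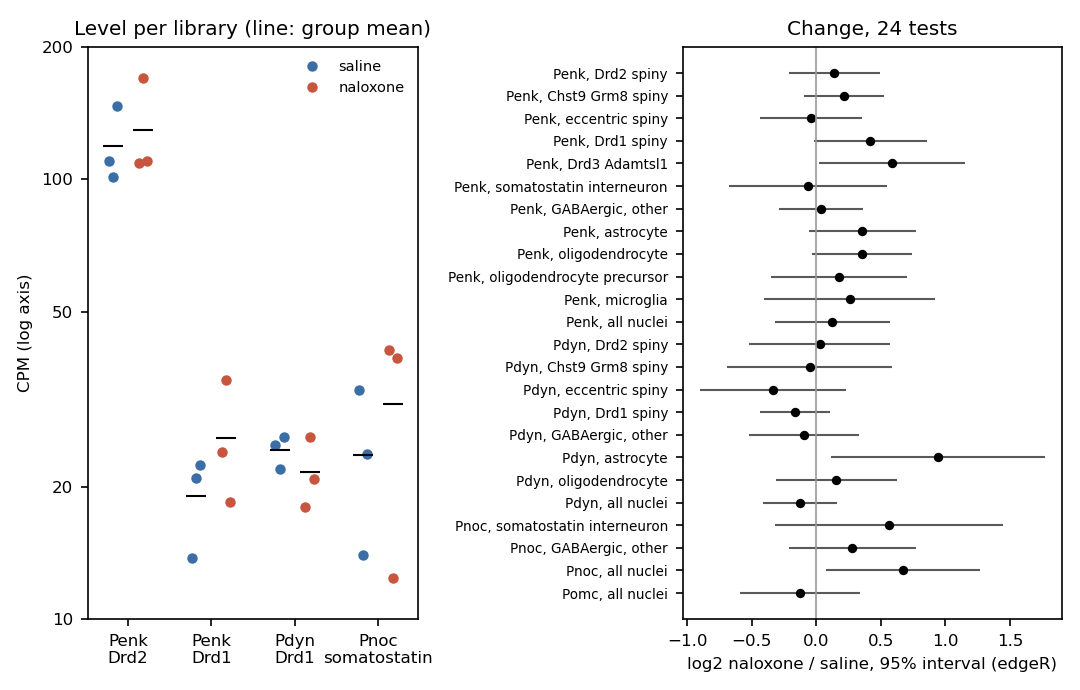
Left, CPM of 4 gene and class pairs in each library (log axis), with group means as lines; saline and naloxone libraries overlap in all 4. Right, the log2 change of naloxone over saline with its 95% interval for the 24 tests of the precursors (edgeR). No test passed after adjustment, and 3 intervals exclude 0. Among all genes, 9.21% of tests in the class fits had an unadjusted p under 0.05.

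The machinery around the peptides was read from 6 lists of 43 genes in all, of which Dpp3, Junb and Tac1 were not analysed here. Over the 12 classes, 351 tests of these genes gave 1 call higher after naloxone and 0 lower by edgeR, with 59 (16.8%) at an unadjusted p under 0.05. Over all genes of the same 12 fits, 0.196% were called and 9.21% had an unadjusted p under 0.05. The call was Chga, chromogranin A, a cargo protein of dense core vesicles, in Drd2 spiny nuclei. Chga stood at 52.5, 49.0 and 49.1 CPM in saline replicates 1, 2 and 3 and rose to 67.6, 82.7 and 79.9 CPM in naloxone replicates 4, 5 and 6, without overlap. Its log2 change was 0.64 ± 0.09 (edgeR adjusted p = 0.0139), where 0.26% of genes were called. Cpe, carboxypeptidase E, which trims peptides after cleavage, had a log2 change of 0.46 ± 0.09 in the same nuclei (adjusted p = 0.0535), at 201 to 221 CPM after saline and 258 to 310 CPM after naloxone. Chga of oligodendrocyte-like nuclei, at 58.2 ± 15.8 CPM after saline and 89.4 ± 13.4 after naloxone, had a log2 change of 0.59 (edgeR adjusted p = 0.161), and the part of free RNA in the call was not tested. The call of Chga was lost under stricter gates (adjusted p = 0.0768) and without any 1 saline library (adjusted p = 0.0741 to 0.112).

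By list, beside those shares over all genes, the calls were 0 of 97 tests for precursor processing (18 at an unadjusted p under 0.05), 0 of 57 for peptide breakdown (4), 0 of 31 for opioid receptors (6) and 1 of 82 for dense core vesicle cargo (15). They were 0 of 43 for transcription factors known to act on Penk or Pdyn (8) and 0 of 41 for other striatal peptides (8), all by edgeR.

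Pcsk2, the prohormone convertase that acts on proenkephalin and prodynorphin, was highest in eccentric spiny nuclei at 15.7 ± 3.63 UMIs per nucleus (1698 ± 80.1 CPM), with Drd2 spiny nuclei next at 9.35 ± 2.14. Pcsk1, the other neuroendocrine convertase, was highest in cholinergic nuclei at 1.05 ± 0.707 UMIs per nucleus. Cpe was highest in astrocyte-like nuclei (4.89 ± 1.42 UMIs per nucleus, 1727 ± 183 CPM), and Pam, which amidates peptide ends, was highest in somatostatin nuclei in CPM (401 ± 80.5) and in eccentric spiny nuclei per nucleus (3.54 ± 0.904).

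Of the processing genes not named so far, Scg5 was highest in CPM in somatostatin nuclei, Furin in Drd3 Adamtsl1 nuclei, Pcsk6 in oligodendrocyte-like nuclei, and Pcsk1n and Ctsl in microglia-like nuclei. Microglia- and oligodendrocyte-like nuclei were shallow (medians of 1526 and 1679.5 UMIs), where CPM weighs a constant number of UMIs more. The part of free RNA in these ranks was not tested. Among enzymes that break enkephalin down, Mme, or neprilysin, was highest in Drd1 spiny nuclei at 0.634 ± 0.161 UMIs per nucleus (60.2 ± 7.26 CPM), with Drd2 spiny nuclei at 0.407 ± 0.1003. Npepps and Ece1 were highest in cholinergic nuclei in CPM (289 ± 47.8 and 64.3 ± 9.73), Ece2 in somatostatin nuclei (77.2 ± 16.1), Ace in other GABAergic nuclei (7.45 ± 1.33) and Lnpep in microglia-like nuclei (235 ± 39.0). Anpep was nearly absent, at 0.142 ± 0.348 CPM in its highest class.

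Of the receptors, Oprm1, the mu receptor through which heroin mainly acts, was highest in Chst9 Grm8 spiny nuclei at 246 ± 15.03 CPM. Oprd1, the delta receptor for enkephalin, was highest in Drd2 spiny nuclei at 71.1 ± 8.13 CPM, the class with the most Penk per nucleus. Oprk1, the kappa receptor for dynorphin, was highest in eccentric spiny nuclei at 41.6 ± 10.3 CPM with Drd1 spiny nuclei next at 33.9 ± 3.02 CPM, the same 2 classes in which Pdyn was highest. Oprl1, the nociceptin receptor, was highest in somatostatin nuclei at 12.0 ± 4.75 CPM, the class with the most Pnoc. These are levels of nuclear RNA and are given as a description.

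Each library held nuclei of both sexes, and nuclei were assigned by Xist against Y-linked genes. Penk of Drd2 spiny nuclei was 123 ± 23.5 CPM in male and 120 ± 29.2 CPM in female nuclei, higher in female nuclei in 2 of 6 libraries (exact sign-flip p = 0.656, adjusted p = 0.898 over 5 tests). Pdyn of Drd1 spiny nuclei was 23.5 ± 4.33 CPM in male and 22.6 ± 3.77 CPM in female nuclei (exact p = 0.656, adjusted p = 0.898). None of the 5 gene and class pairs passed, and the smallest exact p was 0.156, for Penk in other GABAergic nuclei (31.7 ± 4.86 CPM in male and 37.0 ± 8.57 CPM in female nuclei, higher in female nuclei in 5 of 6 libraries).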

How the data were processed

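The deposited files held UMI counts per gene and nucleus, raw and not normalized, per the file headers and values. The submitters' processing notes name Cell Ranger 9.0.1, Seurat 5.2.1, R 4.4.0 and the build mRatBN7.2. Whether intronic reads were counted is not given in the sources used here. The 4 genes and all lists were chosen with earlier results of these data known. A nucleus needed 500 or more detected genes, with 5% or less of its UMIs mitochondrial. Called doublets were then removed, and classes were set by marker gates rebuilt here, so they may differ from the study's. Counts were summed per library and class and tested with edgeR 4.0.16 (quasi-likelihood, TMM) in R 4.3.3, with Benjamini-Hochberg adjustment over all genes of a fit; DESeq2 1.42.0 was an alternative. Levels, co-detection and sexes were compared by exact permutation or sign-flip tests over libraries. Clusters (Leiden, leidenalg 0.10.2, Python 3.11.15) were made without the 4 genes, the listed pathway genes and sex-linked genes. Thinned shares are the values expected on drawing a fixed number of UMIs without replacement. Named beside the precursors were the members of fixed lists and the 5 genes of most similar pattern. On simulated data edgeR recovered 86.5% of 200 genes changed by a log2 value of 1 in Drd1 spiny (13041 genes) and 66.5% in somatostatin nuclei (5388 genes). Alternatives were other factors, filters, gates, clusters, depths and libraries left out. Stricter gates, UMIs per nucleus and the oligodendrocyte comparison were chosen after seeing the data. Itgam, Slco1a4 and Ccdc153 were not analysed here.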

Additional observations from a re-analysis of the deposited data

How the results depend on the processing

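No paired analysis was possible because the saline and naloxone libraries share no replicate number. The order Drd2 above Chst9 Grm8 spiny (Penk), Drd1 above eccentric spiny (Pdyn) and somatostatin above cholinergic (Pnoc) kept its direction under every alternative run. With 1 library left out in turn, the log2 change of Penk ranged from -0.0806 to 0.322 in Drd2 spiny nuclei and from -0.134 to 0.279 over all nuclei, negative without naloxone replicate 5 in both. That of Pnoc over all nuclei ranged from 0.52 to 0.92. The change of Pdyn after naloxone in Drd2 minus that in Drd1 spiny nuclei ranged from -0.0369 to 0.345. The co-detection log2 ratio ranged from -0.0661 to 0.0793 in Drd1 and from -0.193 to 0.0360 in Chst9 Grm8 spiny nuclei. The female minus male difference ranged from -7.58 to 1.01 CPM (Penk, Drd2 spiny) and from -2.24 to 0.127 CPM (Pdyn, Drd1 spiny). The number of precursor tests called ranged from 0 to 1. With Leiden clusters in place of gates, Pnoc of somatostatin nuclei changed by -0.21 and the Chst9 Grm8 co-detection ratio was 0.16. Genes called over the classes numbered 234, against 514 with DESeq2, 355 with clusters, 1910 without a filter and 57 to 313 with a library left out. Over all nuclei they numbered 13, against 422 with DESeq2, 40 without a filter, 0 at 1000 detected genes and 0 to 275 with a library left out. The cause was not tested. Co-detection at 2 UMIs gave a value in Drd1 spiny nuclei alone (-5.57). Even before thinning, 3.57% of these nuclei held 2 or more Penk UMIs and 4.08% held 2 or more Pdyn UMIs. Nuclei with 2 of both are too rare for that value to decide anything on co-detection. Clusters have no other GABAergic class, and stricter gates left too few somatostatin nuclei.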

Other observations

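One cluster without a name held the most Penk, in CPM, of the clusters described here. It was led by Chchd10, Hpca and Nefm (cluster 18, 1312 nuclei) and held 1.03 ± 0.305 Penk UMIs per nucleus and 315 ± 73.2 CPM (SD, n = 6 libraries), with 243 to 431 CPM over the libraries. Its Pdyn level was 48.6 ± 13.0 CPM. Its nuclei were shallow, with a median of 1823 UMIs, and carried both Drd2 (157 CPM) and Drd1 (53.7 CPM). A further cluster without a name, led by Col6a2, Prlr and Scube1 (cluster 28, 481 nuclei), held 0.713 ± 0.326 Penk UMIs per nucleus with Drd2 at 66.9 CPM. These values are a description with no test.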
